A study of Mus musculus with 8 samples.

Results

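Long acetylated domains are stretches of chromatin built from single broad peaks of histone H4 acetylation of 4 kb or more. They were taken as every deposited peak of 4000 bp or more on chromosomes 1 to 19 in any of the 8 libraries, with overlapping ones merged. A domain can thus be longer than what any single library covers. The 3668 such peaks gave 1575 domains, which covered 7.79 Mb in all. The domains and the rest of the merged peaks of the 8 lists made up 82794 regions. Of these, 40161 had a mean covered length of at least 500 bp, and they include all domains. These 40161 are meant below by all regions. The lengths of the peaks chose the domains, so that their number and size are a description and carry no test.

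The series measured acetyl-H4 by ChIP-seq in bone-marrow-derived macrophages grown from C57BL/6 mice. The 4 groups were 25HC then PAM3, PAM3 alone, 25HC alone and untreated, each with 2 libraries, named A and B for the mouse they came from. PAM3 is PAM3CSK4, a synthetic bacterial lipopeptide sensed by the Toll-like receptors TLR2 and TLR1, and 25HC is 25-hydroxycholesterol, an oxysterol that activated macrophages make. All cells carried no genetic change that the labels name. The stimulation time is given with no unit as 18 in all 4 libraries with PAM3 and as 0 in the other 4, so that PAM3 and that time cannot be told apart. With 2 mice, p-values measure the spread between these libraries alone.

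Acetyl groups on the tail of histone H4 weaken its hold on DNA and are read by bromodomain proteins that help transcription. Most acetylated regions are short and sit over a promoter or an enhancer. Long acetylated stretches are known from genes that define a cell type and from clusters of enhancers. In macrophages, Toll-like receptor signals reach chromatin mainly through NF-κB and AP-1, beside the lineage factors PU.1 and C/EBP.

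Some domains hold a gene start, among them those of Nfkbia, Sod2 and Il6, genes that answer Toll-like receptor signals, and that of Klra2. The 250 bases before the start are given for these 4 genes, with capitals for the matches found: the NF-κB consensus, the AP-1 motif TGANTCA and the C/EBP motif TTGCNNAA, each searched on both strands together with the PU.1 motif GAGGAAGT and the TATAAA box. They come from RefSeq on GRCm38.p6, from the minus strand for Nfkbia (chr12:55492648-55492897) and Klra2 (chr6:131247363-131247612) and from the plus strand for Sod2 (chr17:13007589-13007838) and Il6 (chr5:30012864-30013113). Nfkbia and Sod2 are shown because their domains were longer with PAM3 in both mice, Il6 because its domain was long only in the 25HC then PAM3 libraries, and Klra2 because no peak lay there in untreated cells.
Nfkbia: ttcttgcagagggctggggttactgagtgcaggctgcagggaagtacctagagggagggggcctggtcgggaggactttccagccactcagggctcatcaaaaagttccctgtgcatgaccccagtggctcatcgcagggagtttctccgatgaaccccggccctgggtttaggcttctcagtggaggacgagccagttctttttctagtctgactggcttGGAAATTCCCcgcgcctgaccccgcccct
Sod2: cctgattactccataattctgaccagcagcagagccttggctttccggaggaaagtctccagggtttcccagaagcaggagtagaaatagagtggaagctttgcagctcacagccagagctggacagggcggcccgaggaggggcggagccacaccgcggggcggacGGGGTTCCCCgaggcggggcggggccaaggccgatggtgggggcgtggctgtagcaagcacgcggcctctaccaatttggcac
Il6: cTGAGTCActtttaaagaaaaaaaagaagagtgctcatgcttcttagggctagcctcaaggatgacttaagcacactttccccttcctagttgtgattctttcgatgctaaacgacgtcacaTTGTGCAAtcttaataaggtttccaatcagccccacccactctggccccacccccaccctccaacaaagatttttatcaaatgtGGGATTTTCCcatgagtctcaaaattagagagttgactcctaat
Klra2: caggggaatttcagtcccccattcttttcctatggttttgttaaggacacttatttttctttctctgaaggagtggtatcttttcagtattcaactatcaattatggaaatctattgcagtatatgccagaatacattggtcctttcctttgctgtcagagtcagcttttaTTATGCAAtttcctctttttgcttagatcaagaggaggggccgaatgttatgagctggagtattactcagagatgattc

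In these windows the NF-κB consensus begins 29 bases before the start of Nfkbia, 83 before that of Sod2 and 44 before that of Il6. The Il6 window also holds an AP-1 match 249 bases and a C/EBP match 128 bases before the start, and the Klra2 window a C/EBP match at 79 bases. The window of Lyz2, whose start also lies in a domain, was searched too, held no match to any of these motifs and is not shown. Of 586 promoters inside domains, 9.04% held the NF-κB consensus, against 6.42% of the 14258 promoters under any peak and 5.05% of all 31396 in the table. The PU.1 motif was in 4.78% inside domains, against 2.81% under any peak and 2.48% of all. The AP-1 motif was in 5.63% inside domains, 4.71% under any peak and 6.77% of all, and the C/EBP motif in 9.22%, 7.65% and 9.66%. TATAAA was in 11.6% inside domains, 6.41% under any peak and 12.4% of all. Promoters inside domains had a median G and C share of 57.2 % and 11 CpG pairs, against 60.0 % and 15 under any peak, so the sets differ in base composition as well. These are counts of letters, with no test.

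Most domains were only slightly longer than the minimum. Their median length was 4624 bp, with quartiles of 4264 and 5263 bp. The range ran from 4000 to 16806 bp, and 1048 of the 1575 were at most 5000 bp long, while 32 reached 8000 bp. The 486 peaks of 4000 bp to under 4100 bp, just inside the limit, had a median fold over the peak caller's background of 1.78 and a median −log10 q of 8.51. The 609 peaks of 3900 bp to under 4000 bp, just outside it, had 1.73 and 7.61, so the limit cuts through a continuous range. These folds and q values are the authors' own for each peak.

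Libraries differed in how many long peaks they held. Long peaks numbered 455 (mouse A) and 596 (mouse B) with 25HC then PAM3, 223 and 701 with PAM3, 294 and 423 with 25HC, and 604 and 372 in untreated cells. The PAM3 library of mouse A thus held the fewest and that of mouse B the most. The same 2 libraries were lowest and highest in total covered length, 55.3 and 70.6 Mb, and their peaks covered 58.0% and 74.6% of the summed domain length. Domains held 7.58% to 8.34% of the covered length of a library. The read depth behind each library is unknown, and its part in these lengths was not tested.

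Long peaks were not taller than others by much. Their median fold was 1.63 to 1.88 in the 8 libraries, against 1.56 to 1.77 over all peaks. A −log10 q of 5 or more was reached by 72.7% of long peaks and by 58.4% of all peaks.

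A domain that was long in 1 library was usually acetylated in the others, but in shorter peaks. A long peak was found in exactly 1 library for 729 domains (46.3%) and in all 8 for 34. Some peak lay in the domain in all 8 libraries for 1308 domains (83.0%). At least 50% of the length was covered in all 8 for 536 (34.0%), close to the 32.7% of 3975 regions built from peaks of 3000 bp to under 4000 bp. Of the 729 domains that were long in 1 library, 161 were covered over at least 50% in all 8.

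**Figure D1:**
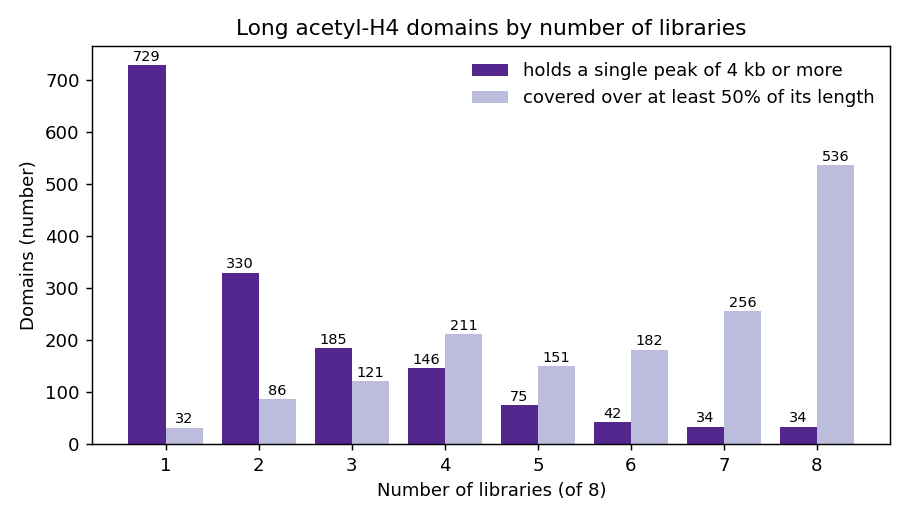
Number of domains (y axis) by the number of libraries (x axis) that hold a peak of 4 kb or more there (dark bars) or cover at least 50% of the domain (pale bars). The dark bars fall off from 729 domains at 1 library to 34 at 8, whereas the tallest pale bar, 536, stands at 8 libraries.

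Long peaks recurred to differing degrees between libraries. The share of a library's long peaks that met a long peak of the other mouse of its group had a median of 61.4% (25.7% to 80.7%). Between groups alike in PAM3 and different in 25HC the median was 50.7% (21.8% to 74.8%), and between libraries that differed in PAM3 it was 29.6% (19.6% to 55.2%). The ranges overlap, and the other mouse of the group was not always the closest library. Of the 701 long peaks of PAM3 B, 25.7% met one of PAM3 A and 41.7% one of 25HC then PAM3 B, and of the 423 of 25HC B, 48.2% met one of 25HC A and 68.1% one of untreated A. Nearly all long peaks met some peak of the other library, with medians of 99.0%, 98.4% and 97.1% in these 3 kinds of pairs. The peaks of the other library covered a median of 86.4%, 80.8% and 66.6% of their bp.

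Peaks marked macrophage genes in every library. All 10 macrophage markers on the list had a peak within 5 kb in all 8 libraries, and 5 of them, Spi1, Lyz2, Cd68, Cd14 and Csf1r, overlapped a domain. Their summed covered length was 79758 to 92562 bp with 25HC then PAM3, 73448 to 99590 bp with PAM3, 67851 to 75664 bp with 25HC and 68961 to 79204 bp in untreated cells. No marker of neutrophils, T cells, B cells, dendritic cells, erythroid cells, or fibroblasts and endothelium overlapped a domain. Ly6g and S100a9 of neutrophils, Cd3e and Bcl11b of T cells, Pax5 of B cells and Col1a2 of fibroblasts had no peak in any library. Dendritic cell markers, of which 4 of 6 had a peak in all 8 libraries, summed to 18912 to 23032 bp with 25HC then PAM3, 17971 to 22051 bp with PAM3, 22145 to 25906 bp with 25HC and 27855 to 30022 bp in untreated cells, and were thus highest in untreated cells. Neutrophil markers summed to 4524 to 5496 bp with 25HC then PAM3, 2788 to 3707 bp with PAM3, 3298 to 3853 bp with 25HC and 3789 to 4036 bp in untreated cells. Markers of fibroblasts and endothelium summed to 16992 to 17797 bp with 25HC then PAM3, 16362 to 16550 bp with PAM3, 16431 to 16976 bp with 25HC and 17588 to 19669 bp in untreated cells. The dendritic, neutrophil and fibroblast sums were lower with PAM3 than in untreated cells, without overlap, and the neutrophil, fibroblast and macrophage sums were higher with 25HC then PAM3 than with 25HC alone. B cell markers, of which 1 of 6 had a peak in all 8 libraries, summed to 4104 to 6221 bp with 25HC then PAM3, 7760 to 7878 bp with PAM3, 8539 to 10595 bp with 25HC and 3454 to 10358 bp in untreated cells. T cell markers summed to 6357 to 6470 bp with 25HC then PAM3, 6675 to 8006 bp with PAM3, 6543 to 7933 bp with 25HC and 7708 to 7935 bp in untreated cells. Erythroid markers summed to 5424 to 5865 bp with 25HC then PAM3, 6141 to 7577 bp with PAM3, 6171 to 7906 bp with 25HC and 4951 to 6573 bp in untreated cells. B cell, T cell and erythroid sums were thus lower with 25HC then PAM3 than with 25HC alone, without overlap. The part of these lists in the results was not tested.

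Of the 1575 domains, 1057 (67.1%) overlapped a protein-coding gene body and 357 overlapped no gene. The start of a listed gene lay inside 414 (26.3%), against 21.7% of the regions built from peaks of 3000 bp to under 4000 bp. Domains with a gene start inside were covered over at least 50% in all 8 libraries in 50% of cases, against 28.3% of the 1161 without one. In all, 1006 of 20665 protein-coding genes (4.87%) overlapped a domain, and 116 overlapped at least 2.

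Macrophage genes were frequent among them. Of 24 macrophage identity genes, 11 (45.8%) overlapped a domain: Spi1, which encodes PU.1, Csf1r, the receptor of the growth factor that sustains macrophages, the transcription factor genes Irf8, Runx1, Maf, Mitf, Zeb2 and Fli1, and Cd68, Lyz2 and Cd14. AP-1 and immediate-early factors had 7 of 22 (31.8%: Fosl2, Junb, Atf3, Batf, Ier2, Klf6 and Myc). Inflammatory effectors and NF-κB feedback had 9 of 30 (30%), LXR targets and cholesterol handling 6 of 21 (28.6%), and the TLR pathway 5 of 18 (27.8%). Glycolysis and hypoxia genes had 4 of 21 (19.05%: the glucose transporter gene Slc2a1, the hexokinase gene Hk3, Pfkfb3 and Pkm). Cytokines and chemokines had 5 of 30 (16.7%: Il1b, Il6, Il10, Ccl4 and Ccl9) and housekeeping genes 3 of 19 (15.8%). Antigen presentation had 2 of 18 (11.1%: Cd74 and H2-DMa), sterol synthesis and SREBP targets 1 of 23 (4.35%: Mvd) and interferon-stimulated genes 1 of 24 (4.17%: Ifit3). These lists were drawn up with earlier results of these data known, and gene length was not matched.

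**Figure D2:**
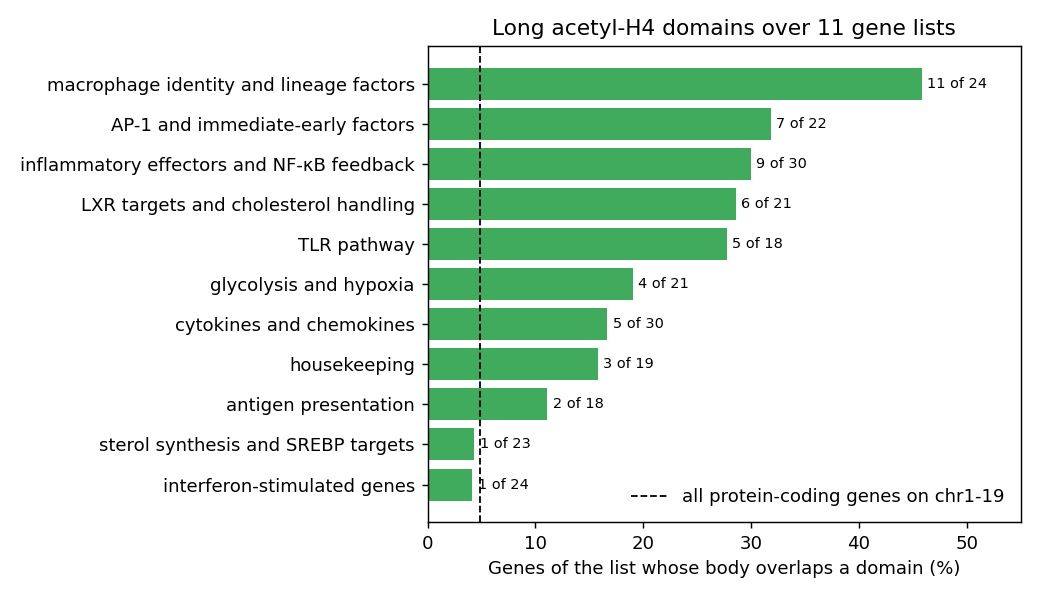
Share of the genes of each list whose body overlaps a domain (x axis, %), 1 bar per list, with the counts beside the bars. The dashed line marks all protein-coding genes on chromosomes 1 to 19, 4.87%; macrophage identity genes stand highest at 45.8%, and interferon-stimulated and sterol synthesis genes lie at or just under the line.

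Several well-known macrophage genes had no domain, because no peak on them reached 4000 bp. They included the lineage factor genes Cebpa and Cebpb, the surface marker genes Adgre1 and Itgam, the lipopeptide receptor gene Tlr2, Tnf and its feedback inhibitor Tnfaip3, the itaconate enzyme gene Acod1, and the cholesterol exporter genes Abca1 and Abcg1.

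Domains also gathered in stretches. With a gap of at most 20 kb between neighbours, 163 stretches held 369 domains, and 30 stretches held 3 or more. The median gap between neighbouring domains was 393 kb. The stretches with the most domains, 6 each, lay in Lpp, a focal-adhesion gene, and near Tomm20, which encodes a mitochondrial import receptor. A run of 5 lay at Incenp, Fth1 and Best1, where Fth1 encodes the ferritin heavy chain. Runs of 4 lay at the SLAM receptor genes Ly9 and Slamf7, near Cebpb, near Ptafr, the receptor of platelet-activating factor, and in Vps13d. Runs of 3 included the lysozyme genes Lyz2 and Lyz1, Fpr1 and Fpr2, receptor genes for bacterial formyl peptides, and Lyn, a Src-family kinase gene. By gene, Lpp held 10 domains, Vps13d 6, and Dab2, Mrc1, Srgap2 and Vmp1 4 each.

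The longest domain, 16806 bp (chr17:84112261-84129066), lay 54857 bp from Zfp36l2, the nearest gene, which encodes a protein that speeds mRNA decay. It was covered over 6492 bp (mouse A) and 6416 bp (mouse B) with 25HC then PAM3, 5540 and 5783 bp with PAM3, 8710 and 10727 bp with 25HC, and 16231 and 14474 bp in untreated cells. All 4 libraries with PAM3 were below the other 4, and both 25HC libraries were below both untreated ones. Against 25HC alone it fell with 25HC then PAM3 by 0.57 on the log2 scale (SE 0.11, adjusted p = 0.0277). It no longer passed when 25HC then PAM3 A (adjusted p = 0.0868), 25HC then PAM3 B (0.126) or 25HC B (0.107) was left out, or when the mouse was a block (0.0605). Comparisons with untreated cells are not tested here, since only untreated libraries held a peak of 4 kb there.

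The next in length, 15932 bp, lay on chromosome 9 at 3011717 to 3027648, 307582 bp from Alkbh8 and in a run of 4 domains. That end of the chromosome is known for satellite repeats, where reads cannot be placed with certainty. Its covered length was 5967 and 9992 bp with 25HC then PAM3, 6833 and 10132 bp with PAM3, 9740 and 13273 bp with 25HC, and 7903 and 11570 bp in untreated cells. Mouse B was above mouse A in every group, and no comparison passed the test without the mouse as a block. With the block the fall with 25HC then PAM3 against 25HC passed (log2 change −0.55, adjusted p = 0.0411, and 0.403 without the block).

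The lysozyme domain (chr10:117277644-117289699) spans the start of Lyz2 and reaches Lyz1, a near-identical copy next to it. It was covered over 5492 and 9270 bp with 25HC then PAM3, 5671 and 9529 bp with PAM3, 6441 and 9261 bp with 25HC, and 10315 and 7098 bp in untreated cells. The groups overlapped, and no comparison passed. Stab1, a scavenger receptor gene, had 5515 and 6698 bp with 25HC then PAM3, 5454 and 5560 bp with PAM3, 5409 and 7029 bp with 25HC, and 9068 and 8191 bp in untreated cells. Both untreated values were above all others, and of its comparisons the 2 that could be tested, both of 25HC then PAM3, did not pass.

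For each comparison, a domain was tested only where a library outside the 4 compared held a peak of 4 kb or more there. It was then measured over the long peaks of those outside libraries, so the values compared did not choose it. Values in bp below are for the whole domain unless the tested stretch is named. Limma compared log2 of covered bp plus 500 bp over all 40161 regions. A domain is said to have risen or fallen when its Benjamini-Hochberg adjusted p over all regions was under 0.05. Counts at an unadjusted p, with the mouse as a block, with stricter peaks or without a library stand below without the share of all regions. They do not show how the domains compare with the rest. Where a group has no peak in a domain, no fold is given. Libraries that are both at 0 show no spread, and the adjusted p can then be too small.

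PAM3 against untreated cells shows what the lipopeptide and its stimulation time changed in cells without added oxysterol. Long domains rose at Nfkbia and Irak3, both brakes on Toll-like receptor signalling, at Sod2, the mitochondrial superoxide dismutase gene, at Nr1h3, which encodes the oxysterol receptor LXRα, and at Fyb, an adaptor gene of integrin signalling. They fell at Tlr4, the lipopolysaccharide receptor gene, at Clec1a, a C-type lectin receptor gene, at Pparg, a nuclear receptor gene of lipid metabolism, at the ubiquitin ligase gene Wwp1 and at Ninj1, whose product ruptures the membrane of dying cells. Of 1049 domains tested, 66 rose (6.29%, against 3.7% of all regions) and 29 fell (2.77%, against 3.49% of all regions). The outside libraries that chose the domains held 1051 long peaks with 25HC then PAM3 and 717 with 25HC, so domains that are long with PAM3 had more chances to be tested. The median log2 change was 0.06 over the domains and 0.02 over all regions. In bulk chromatin, acetylation in fewer cells and less of it in each cell cannot be told apart.

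With the mouse as a block, 50 rose and 15 fell. At an unadjusted p under 0.05 there were 170 higher and 106 lower. Leaving out 25HC then PAM3 B left 37 rises. Falls numbered 7 without untreated A, 9 without untreated B, 12 without 25HC B, 19 without 25HC A and 54 without PAM3 A. With only peaks of −log10 q of 5 or more, limma called 0 domains in either direction, with 78 higher and 63 lower at an unadjusted p under 0.05. The direction then turned at Fyb (log2 change −0.74), Pparg (0.36), Slc66a2 (0.53) and Wwp1 (1.29). The fall at Slc66a2 had an adjusted p of 0.0475 and ended with the block (0.0699) and in 6 of 8 fits without a library (0.0928 to 0.165).

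The Nfkbia domain (chr12:55488202-55493751) covers the whole gene. It was covered over 3602 and 4671 bp with PAM3, against 2782 and 2864 bp in untreated cells, a log2 change of 0.54 (SE 0.08, adjusted p = 0.019). Both PAM3 libraries lay above both untreated ones. The call ended without untreated A (adjusted p = 0.0989) or B (0.0686). Irak3, whose product IRAK-M restrains receptor signalling, had 4797 and 4207 bp with PAM3, against 1876 and 2342 bp in untreated cells (log2 change 0.92, SE 0.09, adjusted p = 0.00644). Nr1h3, together with the start of the lysosomal phosphatase gene Acp2, had 4928 and 4967 bp with PAM3, against 2476 and 2566 bp in untreated cells (log2 change 0.92, SE 0.09, adjusted p = 0.00654). The Irak3 and Nr1h3 calls held in all 8 fits that left out 1 library.

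Sod2 had 2406 and 4070 bp with PAM3, against 1537 and 1521 bp in untreated cells (log2 change 0.91, SE 0.15, adjusted p = 0.0254). That call passed only in the fits without PAM3 A or PAM3 B. It ended without untreated A (adjusted p = 0.11), untreated B (0.0979), 25HC A (0.0572), 25HC B (0.0573), 25HC then PAM3 A (0.0507) or B (0.0533), as well as in the block fit (0.0529). Fyb overlaps 3 domains, and only the longest, 10291 bp inside the gene, was called in this comparison. That domain, meant here by the Fyb domain, had 8888 and 10200 bp with PAM3, against 5398 and 4775 bp in untreated cells (log2 change 0.91, SE 0.11, adjusted p = 0.0111, and 0.0578 without untreated B). Wwox, a tumour suppressor gene, had 5888 and 6004 bp with PAM3, against 986 and 947 bp in untreated cells. Over the tested stretch of its domain, which both PAM3 libraries covered over 4973 bp, the log2 change was 1.97 (SE 0.20, adjusted p = 0.00714), and the call held in all 8 fits without a library.

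The largest rises were at domains with little or no untreated signal. A domain 36434 bp from Acsl1, which encodes an enzyme that activates long fatty acids, had 4479 and 4558 bp with PAM3, against 233 and 0 bp in untreated cells (adjusted p = 0.0047). Klra2, a lectin-like receptor gene of the Ly49 family, had 4094 and 4639 bp with PAM3 and no peak in untreated cells (adjusted p = 0.0202). A domain 508 bp from Ms4a6d, a membrane protein gene of the MS4A cluster, had 3082 and 4176 bp with PAM3 and none in untreated cells (adjusted p = 0.0047). In all, 9 risen domains had no untreated peak in the tested stretch, among them the one 12159 bp from the clathrin-assembly gene Picalm, with 1674 and 4617 bp with PAM3 (adjusted p = 0.0102), and the one 917 bp from Clrn3, with 2319 and 4055 bp (adjusted p = 0.0233). The Acsl1 and Ms4a6d calls held in every fit without a library that could test them. The Klra2 call ended without PAM3 A (adjusted p = 0.0724), PAM3 B (0.0838), untreated A (0.0907) or untreated B (0.0828), the Picalm call without untreated A (0.0521), and the Clrn3 call without PAM3 A (0.0568), PAM3 B (0.101), untreated A (0.096) or untreated B (0.0886).

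Among the falls, the Tlr4 domain (chr4:66826249-66830704) lies over the left end of the gene. It was not covered in either PAM3 library and was covered over 3669 and 3526 bp in untreated cells (adjusted p = 0.00341). The Clec1a domain was not covered with PAM3 either and had 3199 and 3451 bp in untreated cells (adjusted p = 0.0047). A domain 5893 bp from Cnrip1, which encodes a partner of cannabinoid receptors, had no peak with PAM3 and 2294 and 2193 bp in untreated cells (adjusted p = 0.00526). These 3 are the fallen domains with no PAM3 peak in the tested stretch, and their calls held in every fit without a library that could test them.

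Other fallen domains kept part of their length. Wwp1 had 1170 and 1322 bp with PAM3, against 4064 and 3997 bp in untreated cells (log2 change −1.31, SE 0.09, adjusted p = 0.0047). Pparg had 1089 and 779 bp with PAM3, against 3747 and 4282 bp in untreated cells (log2 change −1.59, SE 0.20, adjusted p = 0.011, and 0.0546 without untreated B). Ninj1 had 2347 and 3738 bp with PAM3, against 10991 and 6831 bp in untreated cells. Its tested stretch had 1186 and 2325 bp with PAM3, against 5886 and 5030 bp in untreated cells (log2 change −1.38, SE 0.19, adjusted p = 0.0146), and the call ended without untreated A (0.076) or B (0.0528). Kif21b, a kinesin gene, had 675 and 1867 bp with PAM3, against 4115 and 4081 bp in untreated cells (log2 change −1.40, SE 0.25, adjusted p = 0.0318). That call passed in 2 of the 8 fits without a library, those without PAM3 A or PAM3 B, had adjusted p from 0.0656 to 0.119 in the rest, and reached 0.0548 with the mouse as a block.

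25HC then PAM3 against 25HC alone asks the same of cells that had received the oxysterol. Long domains rose near Saa1, an acute-phase apolipoprotein gene, and at Fosl2, an AP-1 subunit gene. As with PAM3 against untreated, they also rose at Cdk19, a Mediator kinase gene, and at Nfkbia, Irak3, Sod2, Nr1h3, Fyb and Wwox. They fell at Il10, the anti-inflammatory cytokine gene, at Irf8, a lineage factor gene, at the autophagy kinase gene Ulk2, at Hpgd, which encodes the enzyme that inactivates prostaglandins, and at the endolysosomal channel gene Tpcn2. Of 1158 domains tested, 77 rose (6.65%, against 5.12% of all regions) and 94 fell (8.12%, against 5.4% of all regions). The outside libraries held 924 long peaks with PAM3 and 976 in untreated cells. The median log2 change was −0.04 over the domains and −0.03 over all regions.

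The fit with the mouse as a block called 62 rises and 70 falls. At an unadjusted p under 0.05 there were 165 higher and 219 lower. Rises numbered 41 or 38 when 25HC then PAM3 A or B was left out, 23 without PAM3 B and 50 without 25HC B, and falls 27 without 25HC B, 33 without 25HC A, 46 without untreated A and 62 without 25HC then PAM3 A. With only peaks of −log10 q of 5 or more limma called 0 in either direction, with 75 higher and 88 lower at an unadjusted p under 0.05. The direction turned at Fyb (log2 change −2.67), Nr1h3 (−0.67), Sod2 (−0.14), Klf6 (−0.99), Pfkfb3 (−0.57), Kif21b (1.96) and Slc7a13 (0.20).

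A domain 575 bp from Saa1 (chr7:46743757-46749116) had 4248 and 4133 bp with 25HC then PAM3 and no peak with 25HC alone (adjusted p = 0.0037). The Cdk19 domain had 4332 and 5041 bp with 25HC then PAM3 and none with 25HC alone (adjusted p = 0.0052). The domain near Picalm had 4955 and 4939 bp with 25HC then PAM3 and none with 25HC alone (adjusted p = 0.0056). A domain 8107 bp from Atp8b4, a phospholipid flippase gene, had 4130 and 4112 bp with 25HC then PAM3 and none with 25HC alone (adjusted p = 0.00656). Of the 77 risen domains, 11 had no peak with 25HC alone in the tested stretch. These 4 calls held in every fit without a library that could test them. With PAM3 against untreated the Cdk19 and Atp8b4 domains also rose (log2 change 2.69 and 2.57, adjusted p = 0.00885 and 0.014). There the Atp8b4 call did not hold in every fit without a library. The domain near Saa1 could not be tested in that comparison and had 2713 and 5360 bp with PAM3 and no peak in untreated cells.

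Nfkbia reached 5547 and 5370 bp with 25HC then PAM3, against 2510 and 2773 bp with 25HC (log2 change 0.69, SE 0.08, adjusted p = 0.00698), and passed in all 7 fits without a library that could test it. Sod2 had 4059 and 4124 bp with 25HC then PAM3, against 1412 and 1432 bp with 25HC (log2 change 1.23, SE 0.15, adjusted p = 0.00834, and 0.051 without 25HC B). Irak3 had 4381 and 5091 bp with 25HC then PAM3, against 1838 and 1798 bp with 25HC. Its log2 change was 1.05 (SE 0.16, adjusted p = 0.0157), and the call ended without 25HC then PAM3 A (0.0667) or B (0.0578), 25HC A (0.0668) or 25HC B (0.0834). Nr1h3 had 4983 and 4991 bp with 25HC then PAM3, against 2366 and 2690 bp with 25HC (log2 change 0.83, SE 0.09, adjusted p = 0.00604). The Fyb domain had 10288 and 9089 bp with 25HC then PAM3, against 3964 and 4873 bp with 25HC (log2 change 1.03, SE 0.11, adjusted p = 0.00642). The Nr1h3 and Fyb calls held in all 8 fits without a library.

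Il10 had 1771 and 1836 bp with 25HC then PAM3, against 3372 and 3645 bp with 25HC alone (log2 change −0.82, SE 0.06, adjusted p = 0.0037), and the call held in all 7 fits without a library that could test it. Irf8 had 1394 and 1308 bp with 25HC then PAM3, against 3023 and 3592 bp with 25HC (log2 change −1.06, SE 0.18, adjusted p = 0.0203). That call ended without 25HC then PAM3 A (0.065) or B (0.0898), 25HC A (0.0701) or 25HC B (0.0968). Without 25HC, Irf8 had 1847 and 1648 bp with PAM3, against 4216 and 3009 bp in untreated cells, a difference that could not be tested. Wwp1 had 1223 and 1237 bp with 25HC then PAM3, against 4509 and 4073 bp with 25HC (log2 change −1.47, SE 0.07, adjusted p = 0.00327). Maco1, the gene of the membrane protein macoilin, had 660 and 261 bp with 25HC then PAM3, against 4196 and 4244 bp with 25HC (log2 change −2.35, SE 0.24, adjusted p = 0.00552).

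Of the 94 fallen domains, 7 had no peak with 25HC then PAM3 in the tested stretch. Ulk2 had 3217 and 3997 bp with 25HC alone (adjusted p = 0.00327), and Tpcn2 had 2637 and 3133 bp (adjusted p = 0.00239). Hpgd had 3913 and 2691 bp with 25HC alone (adjusted p = 0.0062), and Ncam2, a neural adhesion gene, had 3590 and 2739 bp (adjusted p = 0.00469). Slc7a13, an amino acid transporter gene, had 4327 and 3420 bp with 25HC alone (adjusted p = 0.0295), a call that passed in 2 of 8 fits, those without PAM3 A or PAM3 B, and had adjusted p from 0.0611 to 0.128 in the rest. The block gave Slc7a13 an adjusted p of 0.0536. The Ulk2, Tpcn2, Hpgd and Ncam2 calls held in every fit without a library that could test them.

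**Figure D3:**
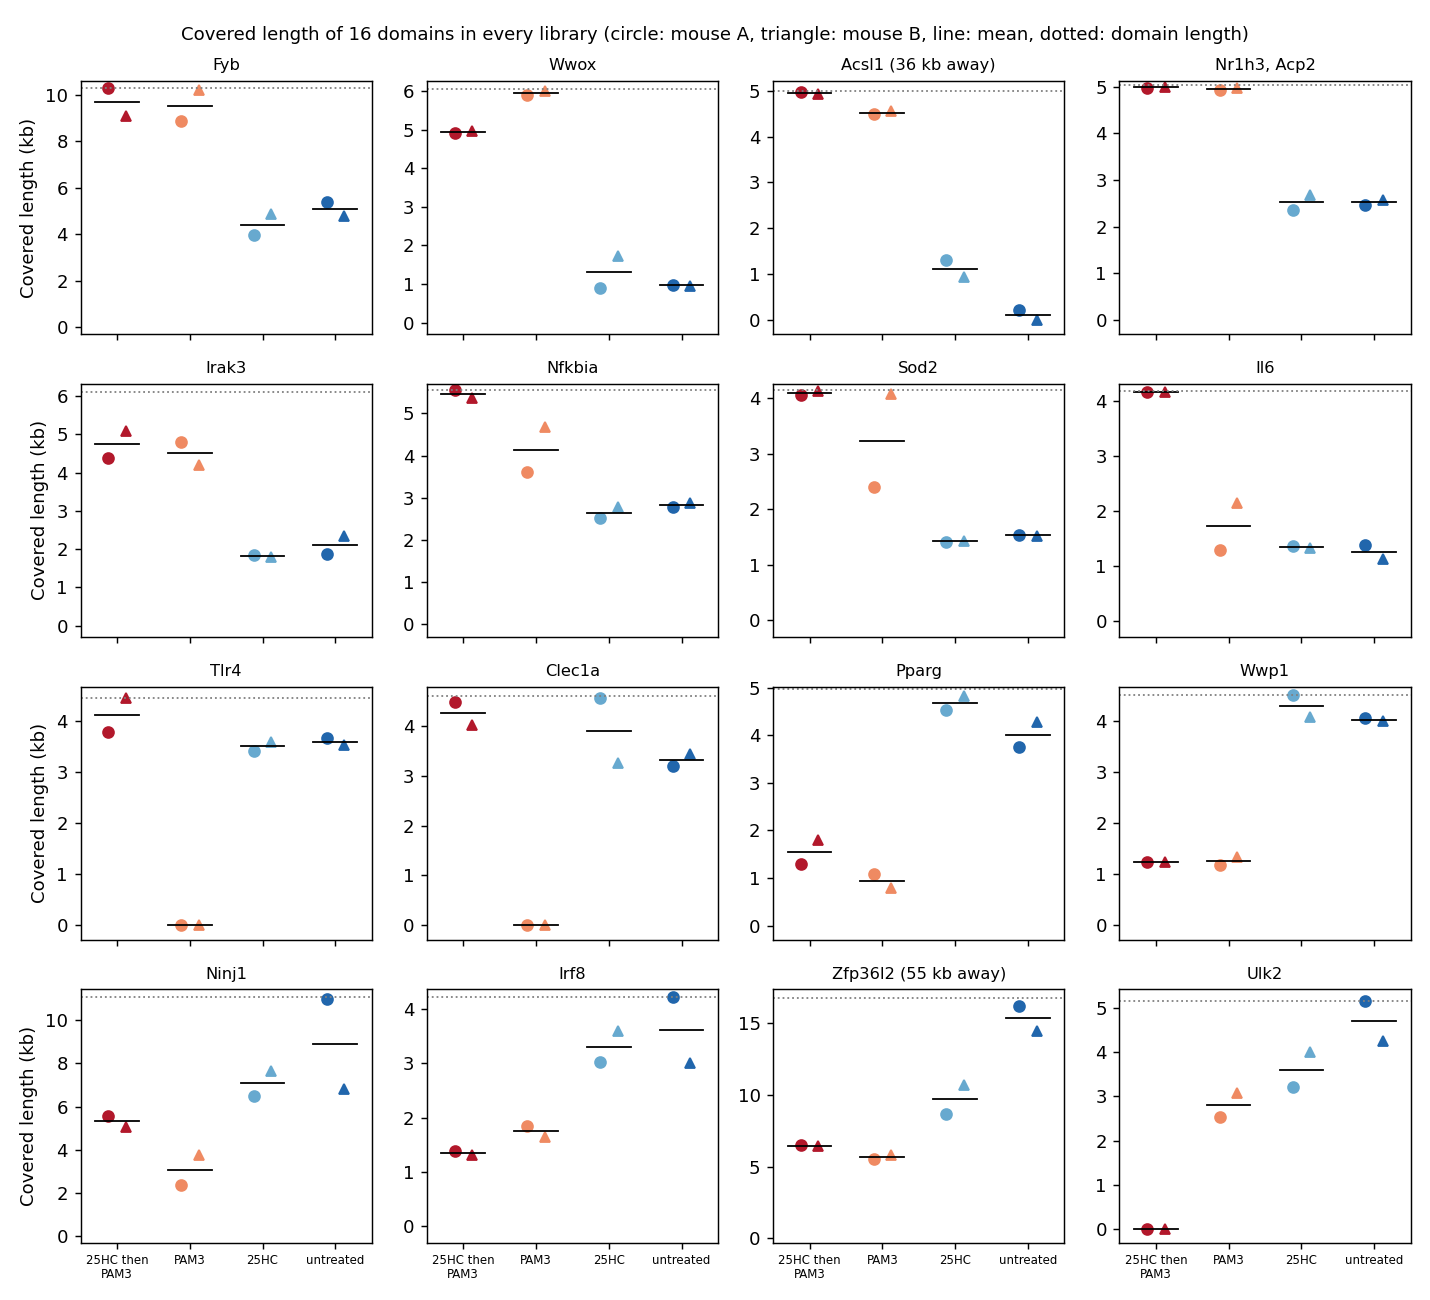
Covered length in kb (y axis) of 16 domains, 1 panel each, in the 4 groups from 25HC then PAM3 on the left to untreated on the right. Circles are mouse A, triangles mouse B, black lines the mean of both and dotted lines the domain length; Tlr4 and Clec1a are at 0 in the 2 PAM3 libraries alone, and Ulk2 in the 2 libraries with 25HC then PAM3 alone.

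The 2 comparisons of PAM3 share no library, but the libraries of each chose the domains tested in the other. A domain tested in both thus held a long peak in a library of each, so the compared values helped to choose it. All regions were not chosen this way, so their shares are no like measure, and agreement is not read from the difference. Of 632 domains tested in both, 38 rose without 25HC and 46 after it, and 30 rose in both (4.75%, against 2.49% of all regions). That is 78.9% of the 38 and 65.2% of the 46, where 999 of all regions rose in both, 67.2% of 1487 and 48.6% of 2057. They included Nfkbia, Irak3, Sod2, Nr1h3, Fyb, Wwox, Bcl2a1a, which encodes an anti-apoptotic protein, Slc15a3, a lysosomal peptide transporter gene, Siglece, a sialic-acid lectin gene, and a domain near Ptger2, a prostaglandin receptor gene. Without 25HC the block ended the calls at Bcl2a1a (adjusted p = 0.0627), Slc15a3 (0.0576) and near Ptger2 (0.0821), and after 25HC that at Slc15a3 (0.074). Of the same 632 domains, 20 fell without 25HC and 53 after it, and 9 fell in both (1.42%, against 2% of all regions). That is 45% of the 20 and 17% of the 53, where 804 of all regions fell in both, 57.4% of 1400 and 37.1% of 2168. Among the 9 were Pparg, Wwp1, Kif21b and Ltc4s, the leukotriene C4 synthase gene. No domain rose without 25HC and fell after it.

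After 25HC, the calls at Pparg and Kif21b did not hold in every fit without a library. The tested stretch of Pparg had 1070 and 1572 bp with 25HC then PAM3, against 4282 and 4282 bp with 25HC (log2 change −1.43, SE 0.23, adjusted p = 0.018), and the call ended without 25HC then PAM3 A (0.0756), 25HC A (0.0842) or 25HC B (0.0788). That of Kif21b had 1444 and 1538 bp with 25HC then PAM3, against 4043 and 4082 bp with 25HC (log2 change −1.22, SE 0.25, adjusted p = 0.0401). The Kif21b call passed only without PAM3 A or PAM3 B (0.0688 to 0.146 in the other 6 fits) and ended with the block (0.0622).

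Among the domains with the widest gap between libraries with and without PAM3, that in Rnf144b, a ubiquitin ligase gene, had 1262 and 2631 bp with 25HC then PAM3, 2336 and 1941 bp with PAM3, 4953 and 4966 bp with 25HC, and 5062 and 5067 bp in untreated cells. It fell with 25HC then PAM3 against 25HC (log2 change −1.24, SE 0.27, adjusted p = 0.0464), a call that held in 1 of 8 fits without a library, that without 25HC then PAM3 B (0.0611 to 0.162 in the rest), and ended with the block (0.0879). For PAM3 against untreated it did not pass (adjusted p = 0.113). A domain 276655 bp from Hrh4, a histamine receptor gene, had 911 and 392 bp with 25HC then PAM3, none with PAM3, 3131 and 3488 bp with 25HC, and 5027 and 3310 bp in untreated cells. It fell with 25HC then PAM3 against 25HC (log2 change −1.78, SE 0.29, adjusted p = 0.0189), and the call ended without 25HC A (0.0836) or B (0.0935).

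Fosl2 was the domain that passed in opposite directions. It had 4550 and 4475 bp with 25HC then PAM3, 2706 and 3383 bp with PAM3, 2531 and 2744 bp with 25HC, and 4234 and 4411 bp in untreated cells. The 25HC then PAM3 and the untreated libraries were thus high and the 25HC and PAM3 libraries low. It rose with 25HC then PAM3 against 25HC (log2 change 0.61, SE 0.08, adjusted p = 0.00872, and 0.0513 without 25HC A) and fell with PAM3 against untreated (−0.38, SE 0.07, adjusted p = 0.0409). The fall did not pass in any of the 8 fits that left out 1 library (adjusted p = 0.0652 to 0.165) or with the mouse as a block (0.0819). With 25HC alone against untreated it was lower by a log2 change of −0.57 (SE 0.07, adjusted p = 0.109).

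25HC against untreated cells shows what the oxysterol alone changed, and few of the domains tested passed. The outside libraries were those with PAM3, so domains that are long only without PAM3 were not tested here. Among the 450 not tested was the longest domain, near Zfp36l2. Of 1125 tested, 2 rose (0.178%, against 0.0797% of all regions) and 0 fell (against 0.0622% of all regions), with 42 higher and 27 lower at an unadjusted p under 0.05. The risen ones were Gramd1a, whose product carries cholesterol from the plasma membrane to the endoplasmic reticulum, and Myo1e, a myosin motor gene. Gramd1a had 1838 and 1761 bp with 25HC and no peak in untreated cells (adjusted p = 0.0105). It was also covered over 1935 and 1895 bp with 25HC then PAM3 and over 2971 and 4025 bp with PAM3, so the untreated libraries stood alone in having none. Myo1e had 2888 and 2572 bp with 25HC and none in untreated cells (adjusted p = 0.0362). It had 1820 and 2786 bp with 25HC then PAM3 and 2601 and 4422 bp with PAM3, so here too only the untreated libraries had none.

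Neither call is firm. With the mouse as a block the adjusted p was 0.0787 for Gramd1a and 0.135 for Myo1e, and 0 domains passed. The Gramd1a call ended without 25HC then PAM3 A (0.0569) or PAM3 A (0.0565), and the Myo1e call in 6 of 7 fits, all but the one without untreated B, with adjusted p from 0.0659 to 0.103 in those. Rises numbered 15 without untreated B, 5 without untreated A, 1 without 25HC then PAM3 B, and 0 without 25HC then PAM3 A, PAM3 A or PAM3 B. Falls numbered 5 without 25HC A, 3 without 25HC B and 4 without untreated B. The lowest adjusted p among falls were 0.1 for a domain 14750 bp from Kcnip1, with 1883 and 2002 bp with 25HC against 3640 and 4030 bp in untreated cells, and the 0.109 of Fosl2. With only peaks of −log10 q of 5 or more limma called 0, with 34 higher and 33 lower at an unadjusted p under 0.05.

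25HC then PAM3 against PAM3 shows what the oxysterol changed in stimulated cells. Of 843 domains tested, 5 rose (0.593%, against 1.33% of all regions) and 17 fell (2.02%, against 1.78% of all regions), with 39 higher and 100 lower at an unadjusted p under 0.05. The outside libraries were the 25HC and untreated ones, so domains that are long only with PAM3 were not tested here. With the mouse as a block, 2 rose and 8 fell. The median log2 change was −0.05 over the domains and −0.03 over all regions.

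Clec1a was among the 5 rises. It had 4485 and 4035 bp with 25HC then PAM3 and no peak with PAM3 alone (adjusted p = 0.00572), against 4570 and 3254 bp with 25HC and 3199 and 3451 bp in untreated cells. The domain at the lens crystallin genes Cryba4 and Crybb1 had 1413 and 1056 bp with 25HC then PAM3 and none with PAM3 (adjusted p = 0.021). Myo1f, a myosin gene of leukocytes, had 4887 and 5131 bp with 25HC then PAM3, against 3235 and 3703 bp with PAM3 (log2 change over the tested stretch 0.46, SE 0.07, adjusted p = 0.0354). Slc66a2 had 4008 and 2451 bp with 25HC then PAM3, against 843 and 923 bp with PAM3 (log2 change 1.36, SE 0.22, adjusted p = 0.0417). A domain 147917 bp from Hmga2, which encodes an architectural chromatin protein, had 4198 and 4182 bp with 25HC then PAM3, against 1904 and 2700 bp with PAM3 (log2 change 0.71, SE 0.09, adjusted p = 0.0202). The Clec1a call held in all 7 fits that could test it and with the block, whereas those of Myo1f, Slc66a2 and the Hmga2 domain ended with the block (adjusted p = 0.067, 0.0769 and 0.0552).

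Tlr4, like Clec1a, had no peak with PAM3 alone and one in every other library, but could not be tested here, since its single long peak belongs to 25HC then PAM3 B. It had 3792 and 4456 bp with 25HC then PAM3, none with PAM3, 3423 and 3595 bp with 25HC and 3669 and 3526 bp in untreated cells. Ulk2 went the other way, with no peak with 25HC then PAM3 and 2532 and 3080 bp with PAM3 (adjusted p = 0.00417). Tpcn2 had none with 25HC then PAM3 and 1557 and 1821 bp with PAM3 (adjusted p = 0.00417), and Maco1 had 660 and 261 bp, against 3361 and 3354 bp with PAM3 (log2 change −2.08, SE 0.24, adjusted p = 0.0166). Eef2, the translation elongation factor gene, had 1876 and 1993 bp with 25HC then PAM3, against 3234 and 4349 bp with PAM3 (log2 change −0.85, SE 0.08, adjusted p = 0.00975) and 3340 and 3446 bp with 25HC (log2 change −0.70, SE 0.08, adjusted p = 0.00643).

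The Ulk2, Tpcn2 and Eef2 calls against PAM3 held in all 8 fits without a library. Maco1 reached an adjusted p of 0.0517 without PAM3 A. Hpgd and Ncam2, with no peak with 25HC then PAM3, had 1072 and 2761 bp and 2151 and 1344 bp with PAM3 (adjusted p = 0.0298 and 0.0206). The Ncam2 call ended without 25HC then PAM3 A (0.0602) or B (0.0726), and the Hpgd call in 5 of 7 fits, those without 25HC then PAM3 A or B, 25HC A or B, or untreated B (0.0511 to 0.0982), and with the block (0.0822). The rise at Myo1f passed only in the fit without PAM3 A (0.0596 to 0.103 in the other 6), that at Slc66a2 only in those without 25HC then PAM3 A or B (0.0876 to 0.117 in the other 5), and that at the Hmga2 domain only in those without PAM3 A, PAM3 B or 25HC B (0.0508 to 0.0797 in the other 5). The Cryba4 and Crybb1 call ended without 25HC then PAM3 A (0.0558) or PAM3 B (0.0634). Rises numbered 32 without PAM3 A and 15 without PAM3 B, 3 without 25HC then PAM3 B or 25HC B, 2 without 25HC then PAM3 A or untreated B, and 1 without 25HC A or untreated A. Falls numbered 7 without untreated A, 9 without 25HC B and 10 without untreated B. With only peaks of −log10 q of 5 or more limma called 0 in either direction, with 39 higher and 54 lower at an unadjusted p under 0.05, and the direction turned at Clec1a (log2 change −0.036), Slc66a2 (−1.50) and Maco1 (0.57).

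Read by role, feedback genes of NF-κB come first. Of 10 domains at inflammatory effectors and NF-κB feedback genes, all 10 could be tested for PAM3 against untreated, and 5 rose (Irak3, Nfkb1, Nfkbia, Sod2 and Tnip1) while 0 fell, with a median log2 change of 0.71 against 0.02 over all regions. For 25HC then PAM3 against 25HC, 3 of 6 tested rose (Irak3, Nfkbia and Sod2) and 0 fell, with a median of 0.43 against −0.03. Of all regions, 3.7% rose and 3.49% fell in the first comparison, and 5.12% and 5.4% in the second. These shares also stand beside the counts of the lists below, which have few tested domains. The lists were drawn up with earlier results of these data known. In both comparisons the outside libraries include ones with PAM3, so domains that are long with PAM3 could enter through that stimulus. All regions were not chosen this way, and the part of this choice in the counts and medians was not tested. Domains at or near Nfkbiz and Map3k14, not among the list's 10, fell in the second comparison (adjusted p with the mouse as a block 0.0678 and 0.0349). Nfkb1, which encodes the p105 and p50 NF-κB subunit, held 1014 and 2361 bp in its intragenic domain with PAM3 and no peak in untreated cells (adjusted p = 0.011). Its long peaks were those with 25HC then PAM3, 4244 and 4200 bp, where 25HC alone had none. Tnip1, whose product restrains NF-κB, had 3784 and 4141 bp with PAM3, against 2671 and 2693 bp in untreated cells (log2 change 0.56, adjusted p = 0.0108).

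Birc3, Tnip3 and Ptges did not pass where they could be tested. Birc3, an inhibitor of apoptosis gene, had 3391 and 5777 bp with 25HC then PAM3, 3861 and 3249 bp with PAM3, 2113 and 1953 bp with 25HC, and 2812 and 1965 bp in untreated cells. Tnip3, a relative of Tnip1, had 3233 and 5652 bp with 25HC then PAM3, 4638 and 4732 bp with PAM3, 2794 and 4090 bp with 25HC, and 4090 and 1827 bp in untreated cells. Ptges, the gene of an inducible prostaglandin E synthase, had 5602 and 4672 bp with 25HC then PAM3, 3174 and 3275 bp with PAM3, 2789 and 2759 bp with 25HC, and 0 and 3011 bp in untreated cells. In each of these, both PAM3 libraries lay above both untreated ones, with adjusted p of 0.335, 0.38 and 0.415.

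At the receptors and their kinases, 1 of 5 tested TLR pathway domains fell with PAM3 (Tlr4) and 0 rose, and 1 of 2 rose with 25HC then PAM3 against 25HC (Map3k8, the kinase TPL2). Map3k8 had 3514 and 3620 bp with 25HC then PAM3, against 2112 and 1555 bp with 25HC (log2 change 0.79, SE 0.14, adjusted p = 0.0252). The call ended without 25HC then PAM3 A (0.0924) or B (0.0858), without untreated A (0.0554) or B (0.0547), and with the block (0.0513). Cd14, the lipopolysaccharide co-receptor gene, had 3907 and 5491 bp with 25HC then PAM3, 1759 and 2737 bp with PAM3, 2090 and 2147 bp with 25HC, and 2216 and 2095 bp in untreated cells. Both 25HC then PAM3 libraries stood above all others, but the only long peak was 1 of these, so that difference is not tested. With PAM3 against untreated, Cd14 did not pass (log2 change 0.10, adjusted p = 0.82). Irak2, a kinase gene of the pathway, had 3800 and 3808 bp with 25HC then PAM3, 2672 and 4892 bp with PAM3, 4462 and 3621 bp with 25HC, and 3257 and 3575 bp in untreated cells, and did not pass.

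At the cytokine genes, 0 of 3 tested domains passed with PAM3 against untreated, and 1 of 2 fell with 25HC then PAM3 against 25HC (Il10). Il6 had 4166 and 4164 bp with 25HC then PAM3, 1283 and 2153 bp with PAM3, 1369 and 1324 bp with 25HC, and 1376 and 1130 bp in untreated cells. The long peak was thus found in the 25HC then PAM3 libraries, whose difference from the rest chose the domain and is not tested. For PAM3 against untreated Il6 did not pass (log2 change 0.38, adjusted p = 0.22). Il1b had 3124 and 3220 bp with 25HC then PAM3, 1735 and 4200 bp with PAM3, 1730 and 3323 bp with 25HC, and 2489 and 3405 bp in untreated cells, so all groups overlapped there. A separate domain 6931 bp from Il1b, outside the list's count, rose with PAM3 against untreated (log2 change 0.59, adjusted p = 0.0398). That call ended with the mouse as a block (0.0888). Ccl4 had 4169 and 4658 bp with 25HC then PAM3, 3742 and 2375 bp with PAM3, 2034 and 2058 bp with 25HC, and 2059 and 2064 bp in untreated cells (PAM3 against untreated, log2 change 0.52, adjusted p = 0.33).

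Few lineage factor domains passed. Of 12 tested domains at macrophage identity genes, 1 rose with PAM3 against untreated and 0 fell, and of 14 tested with 25HC then PAM3 against 25HC, 0 rose and 1 fell (Irf8). The Irf8 domain could not be tested with PAM3 against untreated. Of all regions, 3.7% and 3.49% were called higher and lower in the first comparison and 5.12% and 5.4% in the second, so these counts do not set the list apart. The risen one is a 4218 bp domain in Zeb2, with 1817 and 4212 bp with PAM3, against 0 and 260 bp in untreated cells (adjusted p = 0.0154). The longer Zeb2 domain, which holds the gene start, did not pass (log2 change −0.33, adjusted p = 0.40). The Spi1 domain was long in 7 of the 8 libraries, with 6058 and 5993 bp with 25HC then PAM3, 3527 and 6088 bp with PAM3, 5170 and 5164 bp with 25HC, and 5821 and 5084 bp in untreated cells. It passed in none of the 4 comparisons. Of the 2 Csf1r domains, 1 starts at 61105345 on chromosome 18. It had 3218 and 3746 bp with 25HC then PAM3 and 3315 and 3756 bp with PAM3. With 25HC it had 3634 and 3847 bp, and in untreated cells 5367 and 4138 bp. Libraries with and without PAM3 overlapped there, with both untreated values above all others. The other Csf1r domain, which starts at 61119039, had 1996 and 1137 bp with 25HC then PAM3, 1277 and 1396 bp with PAM3, 4212 and 3012 bp with 25HC, and 4247 and 2600 bp in untreated cells. All 4 libraries with PAM3 were below the other 4, and the adjusted p was 0.119 against 25HC and 0.31 for PAM3 against untreated, with 0.0438 against 25HC under the mouse block.

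Of the AP-1 and immediate-early factors, 1 of 6 tested fell with PAM3 (Fosl2) and 0 rose, and 2 of 7 rose with 25HC then PAM3 against 25HC (Fosl2 and Klf6) while 0 fell. Klf6 had 5892 and 7323 bp with 25HC then PAM3, against 3283 and 3983 bp with 25HC. Over the tested stretch its log2 change was 0.43 (SE 0.09, adjusted p = 0.0443), a call that ended in all 8 fits without a library (0.0528 to 0.177) and with the block (0.0838). With PAM3 against untreated Klf6 had a log2 change of 0.51 (adjusted p = 0.054), which passed with the block (0.0384). Of LXR targets and cholesterol-handling genes, 1 of 5 tested rose with PAM3 and 1 of 5 with 25HC then PAM3 against 25HC, both times Nr1h3, and 0 fell. Mylip, which encodes the ligase that degrades the LDL receptor, had 4322 and 3529 bp with 25HC then PAM3, 2849 and 3380 bp with PAM3, 2329 and 2334 bp with 25HC, and 2837 and 2770 bp in untreated cells, and did not pass where it could be tested. Srebf1, the gene of a master regulator of lipid synthesis, had 2073 and 2044 bp with 25HC then PAM3, 2036 and 4274 bp with PAM3, 2098 and 2108 bp with 25HC, and 2220 and 2232 bp in untreated cells. It owed its place among the long domains to the PAM3 library of mouse B alone. Soat1, whose product esterifies cholesterol, had 5389 and 6778 bp with 25HC then PAM3, 5000 and 6085 bp with PAM3, 6915 and 6893 bp with 25HC, and 6609 and 6551 bp in untreated cells. Cd36, a scavenger receptor gene, had 2578 and 3821 bp with 25HC then PAM3, 3778 and 5209 bp with PAM3, 1501 and 1700 bp with 25HC, and 3063 and 1810 bp in untreated cells. Neither passed where it could be tested.

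Of the glycolysis and hypoxia genes, 0 of 4 tested passed with PAM3, and 1 of 2 rose with 25HC then PAM3 against 25HC. This was Pfkfb3, whose product drives glycolysis, with 2663 and 4421 bp with 25HC then PAM3, against 965 and 646 bp with 25HC (log2 change 1.58, SE 0.31, adjusted p = 0.0346). That call ended without 25HC then PAM3 A (0.0523) or B (0.119), 25HC A (0.0812) or B (0.146), or PAM3 A (0.0584), and with the block (0.0723). Of 3 housekeeping domains, Eef2 fell with 25HC then PAM3 against 25HC and against PAM3, and the others did not pass. The domain over Neat1, the RNA that builds nuclear paraspeckles, and Frmd8 was long in all 8 libraries, with 6012 and 6019 bp with 25HC then PAM3, 5945 and 6082 bp with PAM3, 6056 and 6147 bp with 25HC, and 7714 and 6222 bp in untreated cells, and passed in none of the 4 comparisons. The antigen presentation, sterol synthesis and interferon lists had 2, 1 and 1 domains, and none of these passed in the comparisons that tested them. With 25HC against untreated, 0 domains of the 11 lists passed, and with 25HC then PAM3 against PAM3 only Eef2 did.

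Over all 8 libraries, 273 domains (17.3%, against 8.89% of all regions) had more covered bp in every library with PAM3 than in any without, and 237 (15.05%, against 12.8% of all regions) had less. For 25HC the counts were 16 (1.02%, against 1.27% of all regions) and 32 (2.03%, against 1.74% of all regions). All 8 libraries chose the domains, so nothing is read from these counts beyond their size. Among the 414 domains with a gene start inside, 14.7% were higher and 12.1% lower with PAM3, against 18.3% and 16.1% of the 1161 without one.

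**Figure D4:**
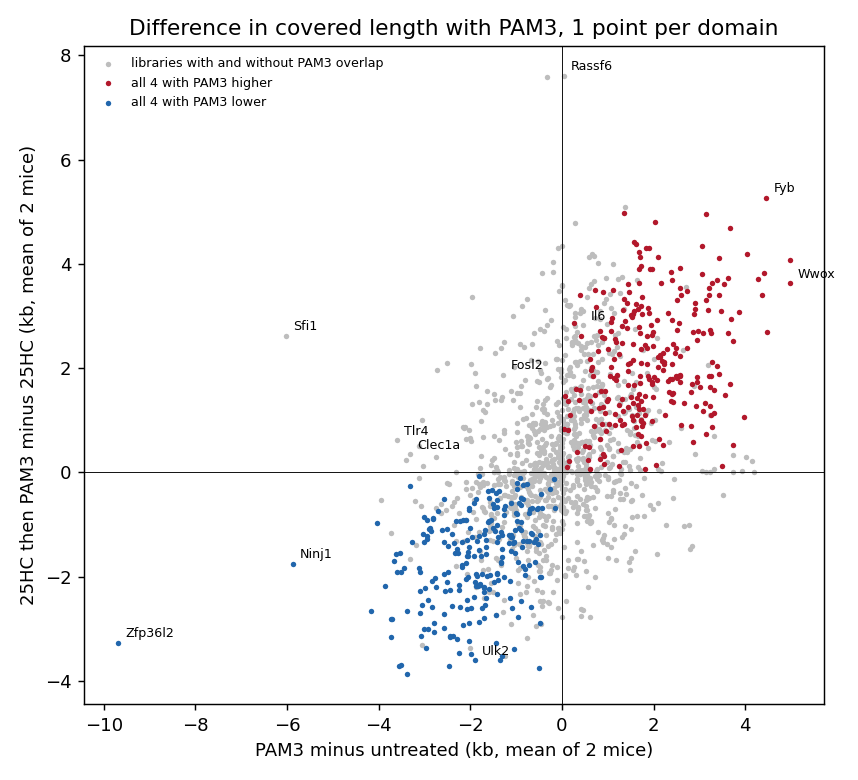
Difference in covered length with PAM3 for each of the 1575 domains, in kb as the mean of 2 mice, without 25HC on the x axis (PAM3 minus untreated) and after 25HC on the y axis (25HC then PAM3 minus 25HC). Red points are the 273 domains in which all 4 libraries with PAM3 were higher, blue the 237 in which all 4 were lower, and grey the rest, which include Tlr4, Clec1a, Fosl2, Il6, Rassf6 and Sfi1.

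On and off domains were few. Only 5 (0.317%) were covered over at least 50% in all 4 libraries with PAM3 and under 10% in all 4 without, against 0.845% of the 38586 other regions. They lay near Saa1, near Ms4a6d, in Cdk19, in Trps1 and 92074 bp from Dnajb6. The reverse was seen once, near Cnrip1 (0.0635%, against 0.803% of the other regions).

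A domain 53363 bp from Rassf6 was long only after both agents. It had 9842 and 9474 bp with 25HC then PAM3, 1225 and 3502 bp with PAM3, 2399 and 1706 bp with 25HC, and 2874 and 1784 bp in untreated cells. No other library came within 5000 bp of the 25HC then PAM3 values, which chose the domain and are not tested. Sfi1, a centrosome gene with many near-identical copies in the mouse genome, had 3600 and 5203 bp with 25HC then PAM3, 241 and 1082 bp with PAM3, 881 and 2682 bp with 25HC, and 10692 and 2679 bp in untreated cells. Its length of 10692 bp came from untreated A alone.

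Choosing the domains in 1 mouse and reading them in the other gave a check that shares no library. Mouse A alone had 1021 domains and mouse B 1307. With 25HC then PAM3 against 25HC, 415 domains chosen in mouse A were higher by at least 500 bp there, and 314 of these (75.7%) were higher by as much in mouse B, with 29 opposite. Of 365 lower in mouse A, 266 (72.9%) were lower in mouse B, with 25 opposite. Read from mouse B to mouse A the shares were 75.9% of 598 higher, with 44 opposite, and 69.8% of 397 lower, with 22 opposite.

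With PAM3 against untreated the shares depended on the mouse. Of 196 domains higher in mouse A, 168 (85.7%) were higher in mouse B, with 8 opposite, but of 711 higher in mouse B only 289 (40.6%) were higher in mouse A, with 172 opposite. Of 592 lower in mouse A, 249 (42.1%) were lower in mouse B, with 124 opposite, and of 287 lower in mouse B, 232 (80.8%) were lower in mouse A, with 7 opposite. The PAM3 library of mouse A has the least and that of mouse B the most covered length, and their part in this was not tested. With 25HC against untreated the shares were 17.2% to 41.7%. Opposite domains outnumbered those of the same direction among the 361 higher in mouse B (133 opposite, 62 the same) and the 496 lower in mouse A (133 opposite, 106 the same), but not among those higher in mouse A (18 opposite, 43 the same) or the 240 lower in mouse B (27 opposite, 100 the same). With 25HC then PAM3 against PAM3 the shares were 38.1% to 70.6%. There 70 were opposite of 457 higher and 19 of 204 lower in mouse A, and 24 of 367 higher and 129 of 533 lower in mouse B.

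**Figure D5:**
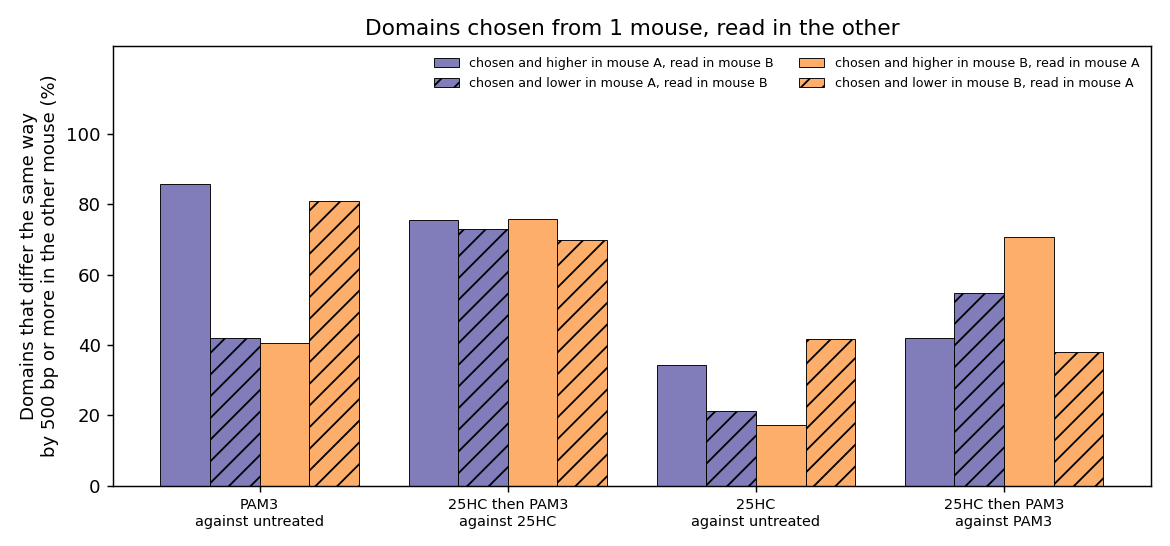
Share of domains (y axis, %) chosen from 1 mouse and differing there by at least 500 bp that differed the same way by as much in the other mouse, for the 4 comparisons (x axis). Violet bars were chosen in mouse A, orange bars in mouse B, and hatched bars were lower in the mouse that chose them; all 4 bars of 25HC then PAM3 against 25HC lie between 69.8% and 75.9%.

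Domains also covered microRNA genes. Of 919 listed hairpins, 13 lay inside 11 domains. The mature sequences of 3 of them are shown, from RefSeq on GRCm38.p6, with the seed (bases 2 to 8) in capitals, because those of 1 domain share a seed and the other is miR-21.
mmu-miR-29b-3p: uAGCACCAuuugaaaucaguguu
mmu-miR-29c-3p: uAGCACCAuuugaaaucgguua
mmu-miR-21a-5p: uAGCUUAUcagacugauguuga

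miR-29b and miR-29c share the seed AGCACCA and are known to target collagen mRNAs, and miR-21 is a microRNA that inflammation induces in macrophages. The domain of Mir29b-2 and Mir29c (chr1:195032228-195038379) was covered over 3939 and 2867 bp with 25HC then PAM3, 6100 and 5336 bp with PAM3, 2355 and 2316 bp with 25HC, and 2826 and 645 bp in untreated cells. The PAM3 libraries were highest, and all 4 libraries with PAM3 were above the other 4, by 41 bp at the closest. The domain at Mir21a, which lies at the end of Vmp1 (chr11:86583552-86588385), had 4281 and 4309 bp with 25HC then PAM3, 3373 and 4834 bp with PAM3, 2986 and 4062 bp with 25HC, and 2652 and 2582 bp in untreated cells. The groups with and without PAM3 overlapped there. Both microRNA domains were chosen after their values were seen.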

How the data were processed

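Acetyl-H4 ChIP-seq was measured in 8 libraries, 2 for each of 4 groups. The submitters' processing notes name GSNAP, MACS2 2.1.0 and the build GRCm38 (mm10), and the deposited files are broad peak lists. What controls, read filters and cut-offs the calling used is not given in the sources at hand. The deposited lists hold peak positions, the authors' score, the authors' fold ratio over background, and the authors' −log10 p and −log10 q for each peak. Read counts are not part of them. Depth is therefore unknown, and intervals for counting error cannot be given. The deposited positions were used for all covered lengths, which count bp of any peak of a library inside a region.

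The domains, gene lists and tests were chosen with earlier results of these data known. Gene bodies, promoters and microRNAs came from RefSeq tables on GRCm38.p6; 16457 of 20665 protein-coding genes had a promoter row, and the tables hold nothing for some members. Each domain is named by the genes it overlaps or else by the nearest gene.

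For tests, log2 of covered bp plus 500 bp was taken in regions with a mean of at least 500 bp, the median of each library was subtracted, and limma 3.58.1 in R 4.3.3 (trend and robust settings) fitted a mean per group over all 8 libraries, with Benjamini-Hochberg adjustment over 40161 regions. These log2 values understate changes of short lengths. The rest of the work used Python 3.11.15 and pandas 2.3.3, and the fit was tested on simulated data.

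Per the labels, a letter marks 1 mouse, which gave a library to every group, so the mouse pairs the libraries. The correlation of same-mouse deviations between any pair of groups was −0.0171 to 0.0114. The reported fit has no block, and the block fit is quoted where it changes the call of a named domain or moves a count.

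The text names the 8 longest domains, per comparison the 5 largest rises and falls among those that passed with the same sign in both mice (where none passed, the 2 with the lowest p), those at a set of fixed genes, those with the largest gap between libraries with and without PAM3, and up to 4 per gene list. Of these, 1 is not reported here. Predicted genes and chemosensory receptor genes were not used as names. Genes counted among calls, in stretches or in both PAM3 comparisons are named from those counts. Alternatives were other pseudocounts, no filter, no median subtraction, the mouse block, peaks of −log10 q of 5 or more, other minimum lengths, the whole length of every domain, and leaving out each library.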

Additional observations from a re-analysis of the deposited data

Results flagged for a closer look

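In 8 of the named domains the PAM3 difference had one sign in both mice after 25HC and the other sign in both mice without it. How many of all domains or regions show such differences was not counted, so nothing is read from the number 8. None of these differences was tested, since all 8 libraries enter it and all 8 chose the domains. They are given as the difference in covered bp after 25HC (25HC then PAM3 minus 25HC) less that without it (PAM3 minus untreated). Sfi1 had 8644 bp, from 2719 bp (mouse A) and 2521 bp (mouse B) after 25HC and −10451 and −1597 bp without, and most of this is the value of untreated A. Tlr4 had 4212.5 bp, from 369 and 861 bp after 25HC and −3669 and −3526 bp without. Fosl2 had 3153 bp, from 2019 and 1731 bp after 25HC and −1528 and −1028 bp without. Myo1f had 1420 bp, from 896 and 1090 bp after 25HC and −764 and −90 bp without. Actb, the gene of a cytoskeletal actin, had 1199.5 bp, from 41 and 36 bp after 25HC and −1870 and −452 bp without. The domain of Cyba and Mvd had 682 bp, from 30 and 118 bp after 25HC and −241 and −975 bp without. That of Brd2 and H2-DMa had 559.5 bp, from 15 and 338 bp after 25HC and −42 and −724 bp without. Il10 went the other way, with −2186 bp, from −1601 and −1809 bp after 25HC and 64 and 898 bp without.

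Chromosomes X and Y, which the choice of domains leaves out, held 54 peaks of 4000 bp or more over the 8 libraries.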

How the results depend on the processing

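The number of domains was 5550 at a minimum length of 3000 bp and 477 at 5000 bp, with median lengths of 3616 and 5588 bp. Leaving out 1 library gave 1339 to 1563 domains, medians of 4583 to 4625.5 bp, and 548 to 613 domains covered over at least 50% in the remaining libraries. The 536 domains covered in all 8 became 1091 at 25% of the length, 87 at 75% and 51 with peaks of −log10 q of 5 or more. The 5 domains only with PAM3 became 8, 0 and 2 under the same settings, and the 1 domain only without it became 0 at 75% and 9 with those peaks. With those peaks, 70 and 121 domains were higher and lower with PAM3 in non-overlapping groups, in place of 273 and 237 (a setting added after seeing the data).

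Called domains, as rises and falls, were as follows. For PAM3 against untreated they were 133 and 58 over the whole length of every domain, 12 and 5 at 5000 bp, 0 and 0 with −log10 q of 5 or more, and 15 falls with the block; without 1 library they were 37 to 67 and 7 to 54. For 25HC then PAM3 against 25HC they were 181 rises over the whole length, 20 and 31 at 5000 bp, and 0 and 0 with −log10 q of 5 or more; without 1 library they were 23 to 88 and 27 to 110. For 25HC against untreated, rises were 0 with the block, at 5000 bp and with −log10 q of 5 or more, and 1 with a pseudocount of 1000 bp; without median subtraction 1 rose and 1 fell, and without 1 library 0 to 15 and 0 to 5. For 25HC then PAM3 against PAM3 they were 2 and 8 with the block, 42 and 46 over the whole length, 0 and 4 at 5000 bp, and 0 and 0 with −log10 q of 5 or more; without 1 library they were 1 to 32 and 7 to 24. Over the whole length, the compared libraries also choose the domains.

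With −log10 q of 5 or more, peaks drop out whole, and 0 of 66 named calls held, while 14 changed sign. For PAM3 against untreated these were Fyb (−0.74), Pparg (0.36), Slc66a2 (0.53) and Wwp1 (1.29). For 25HC then PAM3 against 25HC they were Fyb (−2.67), Kif21b (1.96), Slc7a13 (0.20), Sod2 (−0.14), Nr1h3 (−0.67), Klf6 (−0.99) and Pfkfb3 (−0.57), and for 25HC then PAM3 against PAM3 Clec1a (−0.036), Slc66a2 (−1.50) and Maco1 (0.57), all log2 changes. The cause was not tested. Of 70 named calls, 53 held with the block and 17 did not, 61 held with a pseudocount of 100 bp, 67 with 1000 bp, 64 without the filter and 57 without median subtraction. Leaving out 1 library kept 385 of 529 and ended 144, with no change of sign. Unknown depth limits every value.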
